A study of Homo sapiens with 16 samples.

Results

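The 10 genes described here encode the nuclear lamina and proteins of the nuclear envelope that tie chromatin and the cytoskeleton to it: LMNA, LMNB1, LMNB2, LBR, EMD, BANF1, TMPO, LEMD3, SUN1 and SUN2. They were chosen by name, as a functional group, with earlier results of these data known. All 10 were found among the 63653 genes of the deposited tables. EMD had another entry, on a patch sequence, with a mean of 0 FPKM, and the entry with the higher mean was used. All 10 also passed the filter on low values and are among the 12846 genes tested. RNA sequencing was done on HCT116, an established cell line from a human colon cancer, after the histone methyltransferase G9a (gene symbol EHMT2) had been targeted. One group received BIX 01294, a small-molecule G9a inhibitor, at 0.5 µM for 72 h, and another received a small interfering RNA (siRNA) against G9a at 10 nM for 72 h by lipid transfection. Each treatment had its own control group, called inhibitor control and siRNA control below. The sources used here do not state what those controls were given. Each of the 4 groups held 2 libraries, and the 2 sequencing runs of a library were averaged, so that n = 2 per group. Whether the 2 libraries are separate cultures is not stated by the labels, and p-values then reflect only library-to-library spread, which may be technical.

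The lamina is a meshwork of lamin filaments under the inner nuclear membrane. A-type lamins come from LMNA and B-type lamins from LMNB1 and LMNB2, and large stretches of silent chromatin lie against this meshwork. Inner membrane proteins such as the lamin B receptor and the LEM-domain proteins hold that chromatin, many of them through the small DNA-bridging protein that BANF1 encodes, and SUN proteins connect the lamina through the membranes to the cytoskeleton. G9a places a repressive methyl mark on histone H3 that is common in chromatin at the lamina.

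The ends of the lamin proteins show what a gene-level value cannot separate. Full-length A-type and B-type lamin precursors end in a cysteine followed by 3 more residues, the site to which a farnesyl lipid is attached, whereas lamin C, another product of LMNA, lacks it. The last 15 coding bases of 1 GENCODE transcript per gene (GRCh38 annotation) are shown with the cysteine codon in capitals.
LMNA: TGCagcatcatgtaa
LMNB1: TGTgcaattatgtaa
LMNB2: TGCtacgtgatgtga
Of the complete coding transcripts that GENCODE lists, 4 of 8 for LMNA, 1 of 2 for LMNB1 and 1 of 1 for LMNB2 had a cysteine codon at that place. The deposited values sum over the transcripts of a gene, so lamin A and lamin C were not separated here, nor were the splice forms of TMPO.

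The gene with the largest differences, BANF1, has a coding sequence of 270 bases in a transcript of 1155 bases, the shortest of the 10 transcripts chosen to represent the genes. It is shown whole with the start and stop codons in capitals, to give the size of this chromatin-bridging protein.
BANF1: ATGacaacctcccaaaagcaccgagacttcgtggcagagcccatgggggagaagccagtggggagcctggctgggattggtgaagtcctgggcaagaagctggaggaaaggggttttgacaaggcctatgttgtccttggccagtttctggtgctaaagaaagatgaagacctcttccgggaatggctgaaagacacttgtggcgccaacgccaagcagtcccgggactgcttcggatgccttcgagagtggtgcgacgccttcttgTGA

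The deposited confidence intervals imply depths of 2.023 to 6.937 per run (unit: 1000000 fragments). EHMT2, the targeted gene, was at 15.93 and 17.77 FPKM (fragments per kilobase and 1000000 mapped fragments, scaled between libraries) in the siRNA controls and at 4.679 and 4.538 FPKM with the siRNA, which matches the labels. In the inhibitor controls EHMT2 was at 24.72 and 20.99 FPKM, and with the inhibitor at 19.67 and 18.94 FPKM. The control groups thus differed in EHMT2 as well (log2 difference -0.42, adjusted p = 0.00726 by limma, described below). Epithelial genes were present in every library, with summed levels of 7 markers between 636.3 and 765 FPKM, although CDH1 stayed between 0.6232 and 2.016 FPKM and VIL1 between 0.1498 and 0.4089 FPKM. That sum was highest in the inhibitor controls, at 756.7 and 765 FPKM, and its part in the results was not tested. The labels' protocols also name a fibroblast line. The 8 fibroblast markers summed to between 1.751 and 3.759 FPKM, and LUM and FAP were listed at 0 in all 8 libraries. Detected in every library were 4 of the 8, among them COL1A1 at 0.7295 to 2.069 FPKM and PDGFRB at 0.3855 to 1.835 FPKM. The 2 inhibitor controls differed from the 6 remaining libraries: their values correlated at 0.993 with each other, at 0.957 to 0.974 with the rest, and the rest at 0.985 to 0.995 among themselves, across genes. RNA28S5, a ribosomal RNA gene, was listed at 210.3 and 40.81 FPKM in these controls and between 1045 and 18930 FPKM elsewhere. The part of that gap in the results was not tested, so the inhibitor differences are given against both control groups.

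LMNA was the most abundant of the 10 in all 8 libraries, followed by TMPO, LMNB1 and LMNB2 in that order in each. Means over the 8 libraries were 189.9 FPKM for LMNA, 129.1 for TMPO, 67.5 for LMNB1 and 58.34 for LMNB2. The next genes were LBR at 35.21, SUN1 at 26.42, BANF1 at 23.51 and EMD at 19.12 FPKM. LEMD3 at 11.74 and SUN2 at 10.62 FPKM were lowest and overlapped each other across libraries. LBR, SUN1 and EMD kept this order among themselves in all 8 libraries. Even the lowest lie at or above the 56.4th percentile of the genes tested, and LMNA lies at the 97.6th. One gene moved far in this order: BANF1 ranked 5 of 10 in both inhibitor controls, 8 of 10 in the inhibitor and siRNA control libraries, and 10 of 10 in both siRNA libraries.

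**Figure D1:**
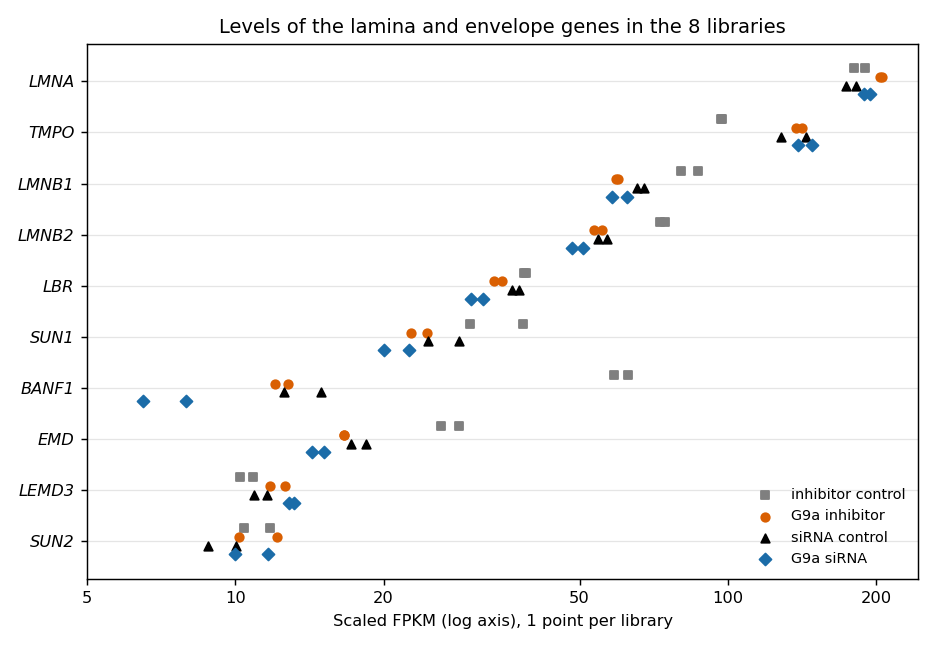
Scaled FPKM of the 10 genes on a log axis, 1 point per library, with 2 libraries in each of the 4 groups and genes ordered by their mean. BANF1 spreads from 6.505 to 62.73 FPKM, whereas LMNA stays between 173.4 and 205.2 FPKM.

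In the first comparison, inhibitor against its own control, BANF1, EMD, LMNB1, LMNB2, SUN1 and LBR were lower and TMPO and LMNA were higher. These 8 of 10 passed the threshold of 0.05 on the Benjamini-Hochberg adjusted p from limma, a two-sided moderated test over all genes. The background is high, because 36.5% of all genes tested passed in this comparison, 17.7% higher and 18.7% lower. The median log2 difference was -0.30 over the 10 genes and 0.01 over all genes. In the siRNA libraries against theirs, where 2.13% of all genes passed (0.802% higher and 1.32% lower), only BANF1 did, and it was lower. The all-gene count behind that share, 273, ran from 8 (without siRNA control replicate 2) to 424 (without siRNA control replicate 1) when 1 library was left out. Of the other 9, 6 had an unadjusted p under 0.05, as did 2670 of the 12846 genes tested, and none passed after adjustment. The median log2 difference there was -0.15 over the 10 genes and -0.01 over all. Treated and control libraries lay without overlap in 9 of the 10 genes for the inhibitor, beside 71.5% of all genes tested. For the siRNA this was 8 of 10, beside 49.7%. With 2 libraries per group such gaps are common, so those given below for single genes are a description. How often all treated libraries lie apart from all control libraries over all genes was not counted. The gaps are between averages of the 2 runs, and some do not hold in a single run.

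The control groups themselves differed in 6 of the 10 genes, with BANF1, EMD, LMNB2, LMNB1 and SUN1 lower and TMPO higher in the siRNA controls than in the inhibitor controls. The log2 differences were -2.07 for BANF1 (adjusted p = 8.15e-06, limma), -0.59 for EMD (adjusted p = 0.000408), -0.40 for LMNB2 (adjusted p = 0.000636), -0.33 for LMNB1 (adjusted p = 0.00271) and 0.48 for TMPO (adjusted p = 0.000528). SUN1 differed by -0.35 (adjusted p = 0.0439), a call lost without inhibitor control replicate 1 (-0.18), siRNA control replicate 1 (-0.25) or either inhibitor library (-0.35). That call held in 9 of 20 alternatives. Among all genes 38.3% passed in that comparison, 19.2% higher and 19% lower. Between the inhibitor libraries and the siRNA controls, 0 of the 10 genes passed the adjusted test in limma, and 2, LMNA and LMNB1, had an unadjusted p under 0.05, as did 1599 of all genes tested. Of all genes 0.0389% passed there, which is 5 of 12846 (0.0311% higher and 0.00778% lower). Between the control groups 9 of the 10 genes lay without overlap, beside 69.6% of all genes tested. For the inhibitor libraries against the siRNA controls this was 7 of 10, beside 45.9%. The inhibitor libraries enter both inhibitor comparisons and each control group enters 2 comparisons or more, so these counts are not independent of each other. The split of the calls over all genes moved with scaling: higher ones were 48.6% of calls for the inhibitor, 37.7% for the siRNA, 50.3% between controls and 56.4% for the difference between treatment effects, against 34.8%, 14.9%, 18% and 67.2% with FPKM as deposited. Quantile normalization gave 49.1% for the siRNA.

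**Figure D2:**
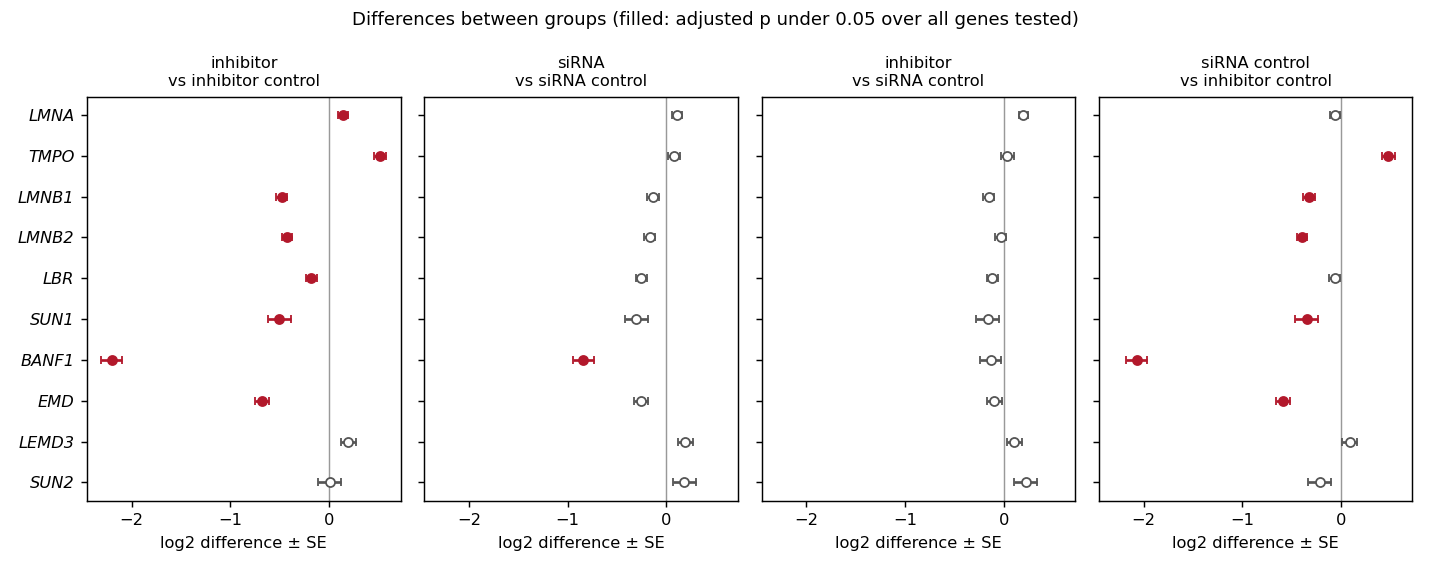
Log2 difference with its SE for each gene in 4 comparisons, from limma on log2(FPKM + 1). Filled points passed the adjusted threshold of 0.05: 8 genes for inhibitor against its control, 1 for siRNA against its control, 0 for inhibitor against the siRNA controls and 6 between the control groups.

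BANF1 (chromosome 11, 65769550 to 65771620 in hg19) encodes barrier-to-autointegration factor, which bridges double-stranded DNA, binds LEM-domain proteins and helps the envelope to reform after mitosis. It measured 62.73 and 58.61 FPKM in the inhibitor control libraries and 12.78 and 12.02 FPKM with the inhibitor. In the siRNA controls it was 12.54 and 14.92 FPKM, and with the siRNA 6.505 and 7.952 FPKM. The siRNA libraries were thus the lowest and did not overlap any other group, the inhibitor libraries lay beside the siRNA controls, and the inhibitor controls were far above all others. Against its control the inhibitor difference was -2.20 ± 0.11 on the log2(FPKM + 1) scale (SE, adjusted p = 8e-06, limma), 4.9-fold lower by the group means. The same libraries differed from the siRNA controls by -0.13 (adjusted p = 0.636, limma). BANF1 fell with the siRNA by 0.84 ± 0.11 (SE, adjusted p = 0.0151, limma), 1.9-fold by the group means of 13.73 ± 1.69 and 7.228 ± 1.02 FPKM (SD, n = 2).

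The siRNA call on BANF1 kept its direction in 21 alternatives, with log2 differences from -0.97 to -0.71 and adjusted p from 0.00162 to 0.139 in limma. It was lost in 7 of them, which include leaving out siRNA control replicate 2 (-0.73, adjusted p = 0.12) and siRNA replicate 1 (-0.71, adjusted p = 0.0765). Between 48 and 1504 fragments per library were implied for BANF1, which alone gives a counting error of 2.58% to 14.4%. BANF1 overlaps its neighbour EIF1AD by 98 bases. EIF1AD stayed between 24.55 and 29.89 FPKM in the 8 libraries and differed by -0.14 in the inhibitor comparison (adjusted p = 0.132, limma) and by -0.11 in the siRNA comparison (adjusted p = 0.395). In bulk RNA, fewer cells of a type and less RNA per cell cannot be told apart, for BANF1 and for the genes that follow.

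LMNB1 (chromosome 5, 126112315 to 126172712) and LMNB2 (chromosome 19, 2427636 to 2456994) encode the B-type lamins, which stay attached to the membrane by their lipid. LMNB1 was at 80.19 and 87.1 FPKM in inhibitor controls, 59.2 and 59.95 with the inhibitor, 67.5 and 65.28 in the siRNA controls, and 62.44 and 58.31 with the siRNA. Both treated groups lay below their own controls and beside each other, and the inhibitor libraries also lay below both siRNA controls. The inhibitor difference was -0.48 ± 0.06 (SE, adjusted p = 0.000466, limma), against -0.15 from the siRNA controls (adjusted p = 0.344). With the siRNA it was -0.14 (adjusted p = 0.236).

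LMNB2 was at 74.45 and 72.89 FPKM in inhibitor controls, 55.57 and 53.42 with the inhibitor, 54.56 and 56.89 in the siRNA controls, and 48.23 and 50.7 with the siRNA. Only the siRNA libraries lay below all other libraries, and the inhibitor libraries overlapped the siRNA controls. The inhibitor difference was -0.43 ± 0.05 (SE, adjusted p = 0.000507, limma) from its own control and -0.03 (adjusted p = 0.85) from the siRNA controls. With the siRNA it was -0.17 (adjusted p = 0.125). LMNB2 shares 257 bases with TIMM13, which encodes a mitochondrial import chaperone, and TIMM13 differed in the same direction, by -0.54 with the inhibitor (adjusted p = 0.000189, limma) and by -0.31 with the siRNA (adjusted p = 0.0346). The sources used here do not state whether strand was used to assign reads there, and its part in the LMNB2 values was not tested.

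LMNA (chromosome 1, 156052364 to 156109880), the source of lamins A and C, was at 180.2 and 190.3 FPKM in inhibitor controls, 205.2 and 203.8 with the inhibitor, 173.4 and 182.4 in the siRNA controls, and 194.5 and 189.2 with the siRNA. Each treated group lay above its own control without overlap, and the inhibitor libraries were the highest of all. The differences were small: 0.14 ± 0.05 for the inhibitor (SE, adjusted p = 0.0494, limma) and 0.11 for the siRNA (adjusted p = 0.253). Compared with siRNA controls, LMNA in the inhibitor libraries differed by 0.20 (adjusted p = 0.196). The inhibitor call is marginal, since it held in 4 of 20 alternatives, with adjusted p from 0.0233 to 0.411, and was lost without any 1 library other than siRNA control replicate 2, the values ranging from 0.10 to 0.18.

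The ratio of LMNA to a B-type lamin within a library does not depend on scaling between libraries, and both values are per length. LMNA stood at 2.25 and 2.18 times LMNB1 in the inhibitor controls, 3.47 and 3.4 times with the inhibitor, 2.57 and 2.79 times in the siRNA controls, and 3.11 and 3.24 times with the siRNA. Each treated group was above both control groups. Relative to LMNB2, the LMNA ratios were 2.42 and 2.61 in the inhibitor controls, 3.69 and 3.81 with the inhibitor, 3.18 and 3.21 in the siRNA controls, and 4.03 and 3.73 with the siRNA. Here too all 4 treated libraries exceeded all 4 control libraries. These ratios are a description, no test was run on them, and such separations were not counted over all gene pairs. The ratios of TMPO to EMD and of LMNB1 to LMNB2, added after the data were seen, did not separate treated from control libraries in this way. For TMPO over EMD, inhibitor replicate 2 (8.26) was below siRNA control replicate 1 (8.38). In the first run alone, the log2 ratio of LMNA to LMNB1 in siRNA control replicate 2 (1.665) was above both siRNA libraries (1.503 and 1.638), so that separation rests on the second run, whereas LMNA over LMNB2 stayed apart between each treatment and its control in either run.

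**Figure D3:**
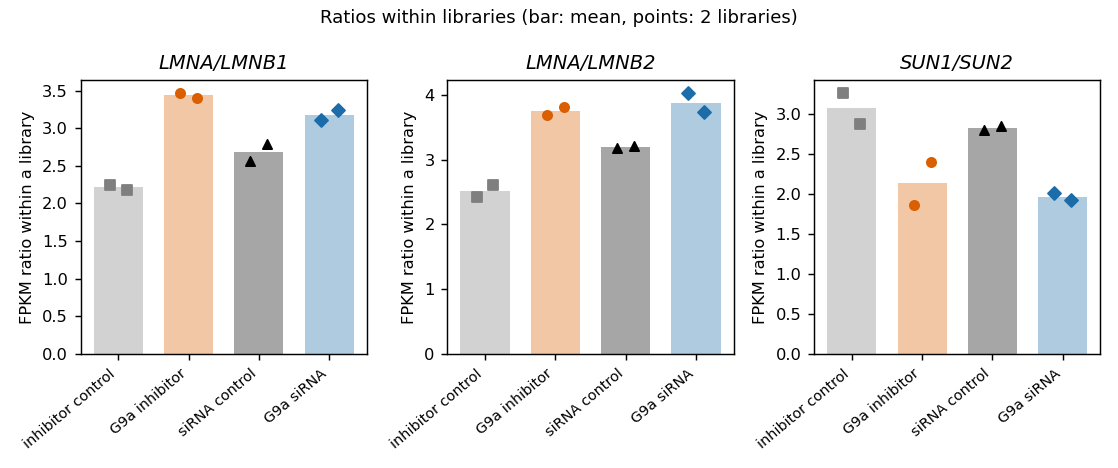
FPKM ratios within a library for LMNA over LMNB1, LMNA over LMNB2 and SUN1 over SUN2, with bars for the group means and 1 point for each of the 2 libraries, on axes that start at 0. The lamin ratios are higher and the SUN ratio is lower in all 4 treated libraries than in all 4 control libraries.

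LBR (chromosome 1, 225589204 to 225616627) encodes the lamin B receptor, which spans the inner membrane, binds heterochromatin proteins and also reduces sterols. It was at 38.97 and 38.56 FPKM in inhibitor controls, 34.72 and 33.55 with the inhibitor, 36.38 and 37.68 in the siRNA controls, and 30.05 and 31.78 with the siRNA. The siRNA libraries were the lowest, and each treated group lay below both control groups. In the second run alone, with FPKM as deposited, inhibitor replicate 1 (35.72) was above inhibitor control replicate 2 (33.33). The log2 differences were -0.18 ± 0.06 for the inhibitor (SE, adjusted p = 0.0361, limma) and -0.25 for the siRNA (adjusted p = 0.0584). From the siRNA controls the inhibitor libraries differed by -0.11 (adjusted p = 0.447), and the control groups differed by -0.07 (adjusted p = 0.403). The inhibitor call on LBR held in 11 of 20 alternatives, with differences from -0.30 to -0.04 and adjusted p from 0.0159 to 0.777. It was lost without either inhibitor library (-0.20 and -0.16) and without either inhibitor control library (-0.18 and -0.19). The siRNA difference passed in 1 alternative, with genes of a mean of at least 5 FPKM (adjusted p = 0.0388).

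Of the LEM-domain genes, whose proteins bind the BANF1 product, EMD was lower and TMPO higher with the inhibitor than in its control. EMD (X chromosome, 153607557 to 153609883) encodes emerin, an inner membrane protein that binds lamins. Its level was 28.43 and 26.17 FPKM in inhibitor controls, 16.63 in both inhibitor libraries, 17.19 and 18.46 in the siRNA controls, and 14.31 and 15.15 with the siRNA. The inhibitor controls stood alone at the top, and the order of the other groups ran from siRNA control down to siRNA without overlap. The inhibitor difference was -0.68 ± 0.07 (SE, adjusted p = 0.000231, limma) from its own control and -0.09 (adjusted p = 0.616) from the siRNA controls. The latter changed sign in the first run alone (0.006) and with FPKM as deposited (0.021), so the order of those groups is not firm. With the siRNA it was -0.26 (adjusted p = 0.0911).

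TMPO (chromosome 12, 98909290 to 98944157) encodes the LAP2 proteins, of which some span the inner membrane and others lie inside the nucleus. It was at 97.36 and 96.92 FPKM in inhibitor controls, 141.6 and 137.4 with the inhibitor, 144 and 128.2 in the siRNA controls, and 148.2 and 139.1 with the siRNA. The inhibitor controls were the only libraries below 128.2 FPKM, and the other 3 groups overlapped. The inhibitor difference was 0.52 ± 0.06 (SE, adjusted p = 0.000427, limma) from its control and 0.04 (adjusted p = 0.849) from the siRNA controls. With the siRNA it was 0.08 (adjusted p = 0.512). The antisense gene TMPO-AS1 shares 911 bases with TMPO and had a mean of 1.062 FPKM. LEMD3 (chromosome 12, 65563351 to 65642107) encodes MAN1, which restrains SMAD signalling at the inner membrane. It was at 10.86 and 10.21 FPKM in inhibitor controls, 12.61 and 11.75 with the inhibitor, 11.59 and 10.93 in the siRNA controls, and 12.85 and 13.14 with the siRNA. Each treated group lay above both control groups, yet neither difference passed, at 0.19 with the inhibitor (adjusted p = 0.0802, limma) and 0.19 with the siRNA (adjusted p = 0.203). In the first run alone, with FPKM as deposited, inhibitor replicate 2 (12.20) was below siRNA control replicate 1 (12.23). From the siRNA controls the inhibitor libraries differed by 0.105 in LEMD3 (adjusted p = 0.599).

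SUN1 (chromosome 7, 855528 to 936072) and SUN2 (chromosome 22, 39130730 to 39190148) encode the inner membrane side of the bridge to the cytoskeleton. SUN1 was at 38.4 and 30.02 FPKM in inhibitor controls, 22.78 and 24.45 with the inhibitor, 24.63 and 28.5 in the siRNA controls, and 20.06 and 22.49 with the siRNA. Each treated group lay below both control groups. That order did not hold in the second run alone, where inhibitor replicate 2 (29.36 FPKM as deposited) was above siRNA control replicate 1 (25.12). The inhibitor difference was -0.51 ± 0.12 (SE, adjusted p = 0.00934, limma) from its control, -0.16 (adjusted p = 0.597) from the siRNA controls, and the siRNA difference was -0.31 (adjusted p = 0.185). The inhibitor call on SUN1 held in 16 of 20 alternatives. It was lost without inhibitor control replicate 1 (-0.34) and without inhibitor replicate 1 (-0.46). The second run alone (-0.46, adjusted p = 0.0619, limma) and no filter on low values (-0.50, adjusted p = 0.0813) also lost it. SUN1 shares 19884 bases with GET4, which encodes a membrane protein insertion factor, and GET4 differed by -0.80 with the inhibitor (adjusted p = 0.000451, limma) and by -0.35 with the siRNA (adjusted p = 0.0935). The part of the overlap in the SUN1 values was not tested.

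SUN2 was at 11.76 and 10.42 FPKM in inhibitor controls, 12.17 and 10.18 with the inhibitor, 8.785 and 10.01 in the siRNA controls, and 9.981 and 11.65 with the siRNA. Its groups overlapped in both treatment comparisons, and the differences were 0.01 ± 0.12 (SE, adjusted p = 0.967, limma) and 0.18 (adjusted p = 0.404). From the siRNA controls the inhibitor libraries differed by 0.225, without overlap (adjusted p = 0.461). Precision is lower here, since 55 to 352 fragments per library give a counting error of 5.33% to 13.4%. SUN2 shares 15636 bases with DNAL4 and 3575 with GTPBP1, both measured at similar levels. DNAL4 differed by 0.28 with the inhibitor (adjusted p = 0.0333, limma) and by 0.30 with the siRNA (adjusted p = 0.107), and GTPBP1 by -0.20 (adjusted p = 0.281) and -0.11 (adjusted p = 0.698). The part of these overlaps in the SUN2 values was not tested. The ratio of SUN1 to SUN2 within a library was 3.27 and 2.88 in the inhibitor controls, 1.87 and 2.4 with the inhibitor, 2.8 and 2.85 in the siRNA controls, and 2.01 and 1.93 with the siRNA. All 4 treated libraries lay below all 4 control libraries, as a description with no test. In the second run alone the log2 ratio of inhibitor replicate 2 (1.474) was above that of siRNA control replicate 1 (1.436), although each treated group stayed below its own control in either run. The siRNA replicate 2 value was 0.553 in the first run and 1.407 in the second. The part of GET4, lower with the inhibitor, and of DNAL4, higher with it, in this ratio was not tested.

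The treatment effects themselves were compared as the siRNA effect minus the inhibitor effect, each against its own control. Of all genes 11.8% passed (6.67% with a positive and 5.16% with a negative value), and of the 10 genes 4 did: BANF1, EMD and LMNB1 had a smaller negative difference, and TMPO a smaller positive one, with the siRNA. The largest was BANF1, with a difference of 1.36 ± 0.15 (SE, adjusted p = 0.00158, limma), which held in all 19 alternatives run for it. For TMPO it was -0.44 ± 0.09 (adjusted p = 0.0164), for EMD 0.42 ± 0.10 (adjusted p = 0.0304) and for LMNB1 0.35 ± 0.08 (adjusted p = 0.0312), and these were lost in 6, 11 and 13 of 19 alternatives. Leaving out either inhibitor library ended the call on all 3 genes (TMPO -0.42 and -0.46, EMD 0.42 and 0.42, LMNB1 0.34 and 0.36), and siRNA replicate 2 ended those on TMPO (-0.39) and EMD (0.39). The EMD call was also lost without inhibitor control replicate 1 (0.37) or siRNA control replicate 1 (0.38). LMNB1 lost its call without inhibitor control replicate 2 (0.30), siRNA replicate 1 (0.30) or either siRNA control library (0.38 and 0.32). LMNB2 had 0.26 ± 0.08 (adjusted p = 0.058) and passed in 1 alternative, with genes of a mean of at least 5 FPKM (adjusted p = 0.0314). For SUN1 and SUN2 the values were 0.20 (adjusted p = 0.473) and 0.18 (adjusted p = 0.533). For LMNA, LBR and LEMD3 they were -0.03 (adjusted p = 0.797), -0.07 (adjusted p = 0.599) and -0.001 (adjusted p = 0.997). The inhibitor controls enter each of these values, and the 4 genes called are among those in which the control groups differ.

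RefSeq promoters (GRCh38.p14) were matched for 9 of the 10 genes, and 2 are shown, EMD and LMNB2, as far as they lie outside annotated untranslated and coding sequence. Both genes were lower with the inhibitor than in its control, and they were picked as examples after the motif matches were seen. The EMD stretch covers chrX:154379045-154379196 on the plus strand, with CCAAT boxes and GC boxes in capitals.
EMD: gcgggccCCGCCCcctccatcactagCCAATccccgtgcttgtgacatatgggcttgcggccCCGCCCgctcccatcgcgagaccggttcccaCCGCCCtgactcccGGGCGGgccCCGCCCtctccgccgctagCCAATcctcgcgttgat
The LMNB2 stretch covers chr19:2456997-2457209 on the minus strand, with TTTGAA and CTTCCGG in capitals.
LMNB2: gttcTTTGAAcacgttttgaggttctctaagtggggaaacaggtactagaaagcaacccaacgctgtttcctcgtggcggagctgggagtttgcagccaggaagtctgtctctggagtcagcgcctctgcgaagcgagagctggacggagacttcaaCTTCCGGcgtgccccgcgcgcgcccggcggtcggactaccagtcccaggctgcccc
Letters were searched on both strands in the 250 bases before each start, as CCAAT, as GGGCGG (GC box), as TTTGAA (the cell-cycle CHR element) and as CCGGAAG (the core bound by ETS factors), and these do not contain one another. EMD held CCAAT at 2 places and the GC box at 6, of which 5 are in the stretch printed, and neither of the others. LMNB2 held the GC box, the CHR element and the ETS core at 1 place each. Among the other genes lower with the inhibitor, the LBR window held none of the 4 motifs and the BANF1 window held the ETS core alone. Of the 2 LMNB1 windows 1 held none, and the other held CCAAT at 1 place and the GC box at 4. Genes that were higher or not called with the inhibitor held the same motifs. TMPO windows held CCAAT at 2 places and the GC box at 1, and an LMNA window held each at 1. LEMD3 held CCAAT at 1 place, the GC box at 2 and the ETS core at 1. A SUN2 window held CCAAT at 2 places, the GC box at 4 and the CHR element at 1. CCAAT was present in at least 1 window for 6 of the 9 genes, which had 15 windows between them. That is a count of genes, whereas the shares that follow are of single windows, so they cannot be compared directly. Over 35116 windows, 32.0% held CCAAT, 42.6% GGGCGG, 13.3% TTTGAA and 8.5% CCGGAAG, so these are common letters, and a match is a description and not a bound site.

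Other genes of the envelope and its partners were read from 6 lists chosen by function. Calls went both ways and were nearly all in comparisons that use the inhibitor controls. Of 97 genes tested, 24 were higher and 27 lower with the inhibitor than in its control in limma, where 17.7% and 18.7% of all genes were. With the siRNA 0 were higher and 1 lower (2.13% of all genes passed), and 0 differed between the inhibitor libraries and the siRNA controls (0.0389% of all genes). At an unadjusted p under 0.05 the last 2 comparisons had 16 and 20 of 97, beside 2670 and 1599 of 12846. Against each other the control groups differed in 54 of them, 27 higher and 27 lower, where 38.3% of all genes passed. The named genes below are given by the mean of the inhibitor controls first and the mean of the inhibitor libraries second.

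Among partners of the SUN proteins, SYNE1, a giant nesprin, was the 1 of 8 called with the inhibitor, at 1.739 against 0.7805 FPKM (log2 difference -0.62, adjusted p = 0.0179, limma). Against the siRNA controls SYNE1 differed by 0.12. The median of the 8 was 0.08, beside 0.01 for all genes, and 0.02 against the siRNA controls, beside -0.01 for all genes. Of 10 other inner membrane and LEM-domain genes 4 were lower and 1 higher, with a median of -0.24. Against the siRNA controls that median was 0.04 and with the siRNA it was -0.06. ANKLE1, a LEM-domain endonuclease, was at 4.604 against 2.501 FPKM (-0.68, adjusted p = 0.00404), NRM, which encodes nurim, at 5.285 against 2.863 FPKM (-0.70, adjusted p = 0.00206), and TMEM43, whose product binds emerin, at 17.73 against 21.63 FPKM (0.27, adjusted p = 0.0108). Relative to siRNA controls the values were -0.23 for ANKLE1, -0.28 for NRM and 0.11 for TMEM43. Of 12 lamin processing and regulating enzymes 4 were higher and 2 lower, with a median of 0.05, and 0.02 against the siRNA controls. ICMT, which methylates the farnesylated cysteine of prelamin A and B-type lamins, was at 44.28 against 56.68 FPKM (0.35, adjusted p = 0.00135), and CTDNEP1, a phosphatase of the nuclear envelope, at 17.16 against 8.835 FPKM (-0.89, adjusted p = 0.000268). NARF, named for binding prelamin A, was at 32.76 against 24.22 FPKM (-0.42, adjusted p = 0.00479). With siRNA controls as the reference, ICMT differed by 0.02, CTDNEP1 by 0.07 and NARF by 0.20.

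The chromatin partners of the lamina held 6 lower and 3 higher of 15, with a median of -0.14, and 0.01 against the siRNA controls. Among them CBX5 and CBX1, which encode heterochromatin proteins that bind the methyl mark of G9a and its relatives, were at 19.06 against 9.223 FPKM (-0.97, adjusted p = 0.000268, limma) and 82.48 against 60.85 FPKM (-0.43, adjusted p = 0.00043). CBX3, which encodes another such protein, went the other way, at 184.3 against 221.3 FPKM (0.26, adjusted p = 0.0142). GMCL1, which binds LAP2 proteins, was at 7.244 against 3.984 FPKM (-0.72, adjusted p = 0.00211). Relative to siRNA controls, CBX5 differed by -0.08, CBX1 by 0.26, CBX3 by 0.11 and GMCL1 by 0.21. Nuclear pore genes went both ways, 12 higher and 8 lower of 32, with a median of 0.14, which was -0.07 against the siRNA controls and -0.05 with the siRNA. NUP37, of the outer ring, was at 41.91 against 61.11 FPKM (0.53, adjusted p = 0.000271), NUPL1, of the central channel, at 41.83 against 60.85 FPKM (0.53, adjusted p = 0.000256), and NUP153, of the basket, at 22.29 against 14.78 FPKM (-0.56, adjusted p = 0.000627). From the siRNA controls NUP37 differed by 0.16, NUPL1 by -0.07 and NUP153 by -0.11, and none of these genes passed.

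The envelope is taken apart and rebuilt at each mitosis, and 20 cell division genes were read beside its own. With the inhibitor 4 were higher and 6 lower than in its control, with a median of 0.00, and 0.01 against the siRNA controls. CDK1, the mitotic kinase, was at 89.81 against 137.6 FPKM (0.61, adjusted p = 2e-04, limma) and PLK1, another mitotic kinase, at 42.86 against 22 FPKM (-0.93, adjusted p = 0.000177). MYBL2, a transcription factor of cell-cycle genes, was at 36.59 against 15.93 FPKM with the inhibitor (-1.15, adjusted p = 0.00023), and it is the 1 gene of the 97 that passed with the siRNA, where it fell from 20.22 to 12.23 FPKM by 0.68 ± 0.12 (SE, adjusted p = 0.0347, limma). Relative to siRNA controls the inhibitor values were 0.19 for CDK1, -0.05 for PLK1 and -0.32 for MYBL2. The part of cell division in the lamina values was not tested.

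**Figure D4:**
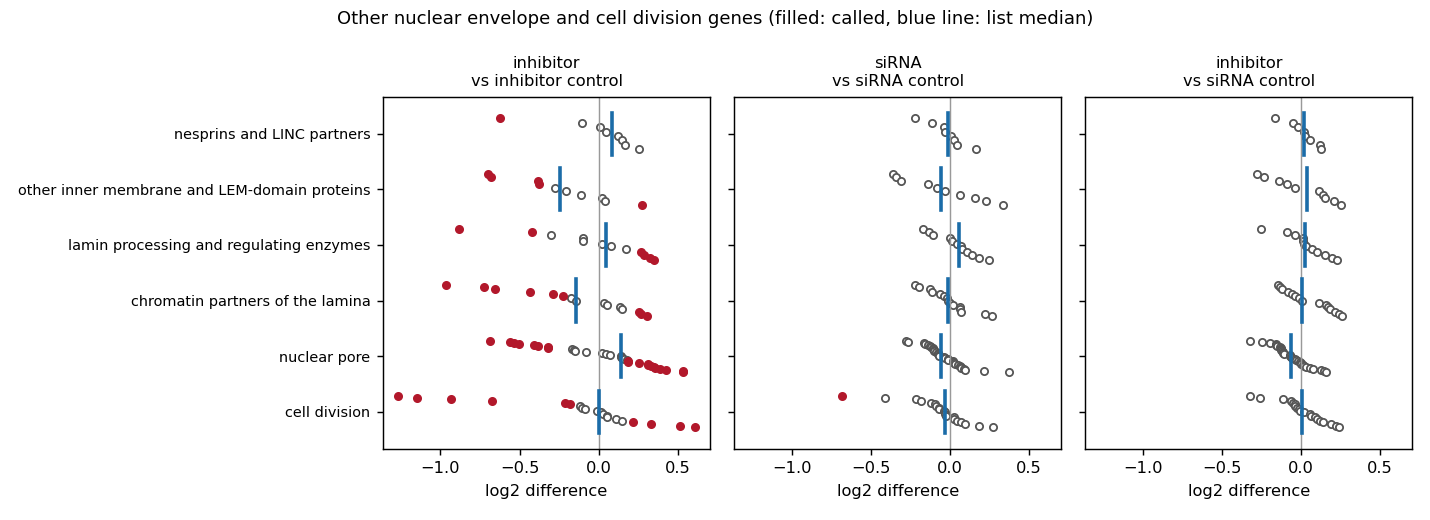
Log2 difference of each of 97 genes in the 6 lists for inhibitor against its control, siRNA against its control and inhibitor against the siRNA controls, with filled points for genes past the adjusted threshold and a blue line at each list's median. Filled points number 51, 1 and 0 from left to right.

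Genes with the pattern most like a member were found among 8310 tested genes with a mean of at least 5 FPKM, by the root mean square distance of log2(FPKM + 1) over the 8 libraries, each gene centred on its mean. For BANF1 these were NCL, the nucleolar protein nucleolin, at 0.136, H1F0, a linker histone, at 0.159, and SNRPA1, a spliceosome protein, at 0.198, beside a median distance of 1.11. NCL was at 478 and 482.7 FPKM in inhibitor controls, 115.2 and 122.8 with the inhibitor, 111.4 and 119.4 in the siRNA controls, and 66.12 and 87.9 with the siRNA. As for BANF1, the siRNA libraries were lowest and the inhibitor libraries overlapped the siRNA controls. LMNB1 lay nearest to HRAS, ATF7IP and HNRNPL, at 0.0368 to 0.0495 (median 0.25). LMNA lay nearest to FADS1, SNX10 and E2F6, at 0.0262 to 0.0365 (median 0.168).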

How the data were processed

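The authors deposited gene-level FPKM per sequencing run, per the file headers, which also give a lower and an upper confidence bound. The submitters' processing notes name STAR 2.3.0e, SAMtools 0.1.19, Cufflinks and hg19. The sources used here do not state the Cufflinks options, the annotation release or the use of strand. FPKM divides by a library total, so abundant RNAs can shift other genes, and values of overlapping genes are uncertain. The labels' protocols name a stranded total RNA kit.

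Computed here: 2 runs were averaged per library. Genes under a mean of 1 FPKM or with a locus shorter than 300 bases were dropped, median-of-ratios factors (0.878 to 1.091) scaled the libraries, and log2(FPKM + 1) was fitted with limma 3.58.1 in R 4.3.3 (trended moderation, 4 groups in 1 fit, 4 residual and 5.04 prior degrees of freedom, Benjamini-Hochberg over 12846 genes, two-sided). Fold changes on that scale understate changes of low genes. MT-RNR2, marked unreliable in all 16 runs, was left out. The fit was tested on simulated data with independent noise, known changes in the inhibitor libraries and no gap between the control groups. Its outcome is not given here, and it does not bear on that gap. Fragments per library were inferred from the confidence bounds and cover counting error only.

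The members and lists were chosen with earlier results of these data known. Genes named are EHMT2, EHMT1, the 10 members, up to 3 called genes of smallest p per list and comparison (inhibitor against either control, siRNA against its control), and the 3 nearest in pattern to LMNA, LMNB1 and BANF1. Markers, overlapping genes, CBX3 and RNA28S5 were added as context. Alternatives covered scaling, pseudocount, filters, moderation, runs, samples in the fit and single libraries left out.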

Additional observations from a re-analysis of the deposited data

Results flagged for a closer look

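For 4 genes the siRNA effect and the inhibitor effect, each against its own control, differed by a test of that difference in limma. Of all genes tested 11.8% passed that test. The 4 genes are also among those in which the control groups differ, and the inhibitor controls enter each value. The siRNA effect minus the inhibitor effect, in log2 units, was 1.361 for BANF1 (adjusted p = 0.00158), 0.423 for EMD (adjusted p = 0.0304), 0.346 for LMNB1 (adjusted p = 0.0312) and -0.439 for TMPO (adjusted p = 0.0164). The calls on EMD, LMNB1 and TMPO were lost in 11, 13 and 6 of 19 alternatives, and that on BANF1 was kept in all 19. Against its own control, the inhibitor difference and then the siRNA difference were -2.20 against -0.84 for BANF1, -0.68 against -0.26 for EMD, -0.48 against -0.14 for LMNB1 and 0.52 against 0.08 for TMPO. Against the siRNA controls the inhibitor differences were -0.13 for BANF1, -0.09 for EMD, -0.15 for LMNB1 and 0.04 for TMPO. EHMT1, the partner enzyme of G9a, measured 25.5 and 24.03 FPKM in the inhibitor controls, and all 6 remaining libraries lay between 9.085 and 15.84 FPKM.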

How the results depend on the processing

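In 21 alternative settings, 905 of 1010 member values kept their direction and side of the threshold, 77 lost the call, 4 gained it and 24 changed sign, 0 of them called. For the inhibitor against its control LMNB1, LMNB2, EMD, BANF1 and TMPO passed in all 20 alternatives run, and the 8 members called became 5 with no filter on low values. For the siRNA the 1 member called became 0 with no filter, short genes kept, no trend, the first run alone or only the groups compared, and 2 at 5 FPKM. For the difference between effects the 4 became 1 as deposited, with no filter or with no trend, and 2 in either run alone. Leaving out 1 library gave 5 to 8 members for the inhibitor (5 without inhibitor control replicate 1 or inhibitor replicate 1), 0 to 1 for the siRNA (0 without siRNA control replicate 2 or siRNA replicate 1), 5 to 6 between controls and 1 to 3 for the difference (1 without either inhibitor library).

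All-gene counts moved more, and causes were not tested. The inhibitor count of 4686 became 3112 as deposited, 2996 with no filter and 3117 in the first run, and 2668 (without inhibitor replicate 2) to 4770 with 1 library left out. The siRNA count of 273 became 134 as deposited, 5 with no filter, 587 at 5 FPKM, 22 with short genes kept, 6 with no trend, 31 and 45 in the first and second run, 7 with only the groups compared, 132 without the inhibitor controls, and 8 to 424 with 1 library left out (8 without siRNA control replicate 2, 424 without siRNA control replicate 1). The count of 4916 between controls became 3175 with no filter, 3212 in the first run, and 3439 to 4846 with 1 library left out. The 5 genes for inhibitor against siRNA control became 32 as deposited, 0 with no filter or no trend, 29 at 5 FPKM, 12 with short genes kept or only the groups compared, 11 with robust moderation or without the inhibitor controls, 1 and 2 in single runs, and 0 (without inhibitor replicate 2) to 44 (without siRNA control replicate 1) with 1 library left out. The 1520 for the difference became 738 as deposited, 239 with no filter, 877 with no trend, 526 and 717 in single runs, and 488 (without inhibitor replicate 2) to 1461 with 1 library left out.

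Signs that turned were near 0. SUN2 with the inhibitor gave -0.007 as deposited, -0.011 in the second run and -0.021 at 5 FPKM. With 1 library left out it gave -0.109 to 0.125, TMPO with the siRNA -0.006 to 0.164, TMPO against the siRNA controls -0.048 to 0.121, and for the difference LMNA -0.065 to 0.014 and LEMD3 -0.047 to 0.048. TMPO turned without siRNA control replicate 2. Between controls LEMD3 gave -0.037 as deposited and LBR 0.074 in the second run. Against the siRNA controls LMNB2, LBR and EMD gave 0.087, 0.004 and 0.021 as deposited, and EMD 0.006 and BANF1 0.035 in the first run. For the difference LMNA gave 0.007 with quantile scaling, LEMD3 0.03 at 5 FPKM and 0.015 in the second run, and LBR 0.008 in the first. With FPKM as deposited the all-gene median between controls was -0.108, beside 0.006 with scaling.

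No pairing of libraries by replicate number was seen (correlations of deviations from the group mean across genes from -0.098 to 0.048). Such weak correlations cannot tell whether libraries with the same number were prepared together. With a replicate block the siRNA count was 68 and 2 members were called for the difference. BANF1 kept its siRNA call (adjusted p = 0.0255, limma). The block lost LMNA and LBR with the inhibitor, SUN1 between controls, and EMD and LMNB1 for the difference.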
